A study of Homo sapiens with 9 samples.

Results

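To describe chromatin accessibility around the albumin family and the oncofetal genes of the liver, ATAC-seq peaks were collected at ALB, AFP, AFM, GC, IGF2, H19, DLK1 and MEG3. ATAC-seq uses a transposase to insert sequencing adapters into open DNA, and a peak is an interval with more reads than its local surroundings. The cells were HepG2, a human liver cancer cell line, transfected with a non-targeting siRNA (NTG) or with 1 of 2 siRNAs against INO80, the ATPase of a nucleosome remodelling complex (siINO80#1 and siINO80#2). Every siRNA was used at 50 nM for 72 hours, and each of the 3 groups had 3 replicates. The deposited data hold 1 peak list per siRNA, so the files give no replicate error for any difference between siRNAs. No p-value is given for that reason, and the loss of INO80 itself cannot be checked from peak lists. A peak was taken when it overlapped the gene body of a member or the 50 kb on either side (GENCODE, GRCh37). Neighbouring windows were joined, which gave 5 loci of 843 kb in total. They held 34 of the 69730 NTG peaks, 29 of the 69333 siINO80#1 peaks and 15 of the 53113 siINO80#2 peaks. Merged across the lists, these were 45 of 111260 regions.

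Albumin (ALB), alpha-fetoprotein (AFP) and afamin (AFM) are secreted by hepatocytes and lie next to each other on chromosome 4, with the related vitamin D-binding protein gene GC further along the same arm. ALB is the main plasma protein of the adult, whereas AFP is its fetal counterpart, is switched off after birth and often returns in liver cancer. The liver transcription factors C/EBP, FOXA and HNF4A are known to act at these genes. IGF2 is a fetal growth factor and H19 a noncoding RNA, and they share a cluster in which the copy from the father expresses IGF2 and the copy from the mother H19. The CTCF-bound control region between them and enhancers beyond H19 are known to set that choice. DLK1, a membrane protein of the Notch ligand type, and MEG3, a noncoding RNA, form a like imprinted pair on chromosome 14.

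The promoters of ALB and AFP are shown first because the results turn on where peaks lay relative to them. They are the 250 bases before each start site in RefSeq (GRCh38.p14, plus strand, ALB at chr4:73404037-73404286 and AFP at chr4:73435971-73436220). Capitals mark matches to C/EBP (TTGCNNAA), searched on both strands.
ALB promoter: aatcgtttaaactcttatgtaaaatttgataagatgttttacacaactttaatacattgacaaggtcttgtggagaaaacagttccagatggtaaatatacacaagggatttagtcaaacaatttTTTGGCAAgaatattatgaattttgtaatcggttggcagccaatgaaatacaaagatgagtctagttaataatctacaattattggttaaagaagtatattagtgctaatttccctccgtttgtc
AFP promoter: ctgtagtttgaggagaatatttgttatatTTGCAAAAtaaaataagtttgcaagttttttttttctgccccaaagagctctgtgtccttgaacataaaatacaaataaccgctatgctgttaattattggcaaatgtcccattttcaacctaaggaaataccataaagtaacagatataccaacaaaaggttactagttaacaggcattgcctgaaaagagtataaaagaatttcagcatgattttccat
The C/EBP matches lay 125 to 118 bases before ALB and 221 to 214 bases before AFP. Such a match was found in 9.13% of 27305 RefSeq promoters of the same length. RefSeq entries were available for 5 of the 8 members.

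The next sequences are the peak nearest to the main start of AFM, GC, ALB and AFP in any list, and the AFP peak of highest rank, from GRCh37 on the plus strand. Long peaks are given as the bases around the summit, and exons were left out. Capitals again mark motif matches.
AFM, chr4:74347243-74347428, NTG alone: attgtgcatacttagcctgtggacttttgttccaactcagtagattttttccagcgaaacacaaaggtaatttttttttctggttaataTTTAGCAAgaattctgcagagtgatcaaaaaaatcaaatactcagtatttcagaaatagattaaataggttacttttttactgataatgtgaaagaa
GC, chr4:72649797-72650022, siINO80#1 alone: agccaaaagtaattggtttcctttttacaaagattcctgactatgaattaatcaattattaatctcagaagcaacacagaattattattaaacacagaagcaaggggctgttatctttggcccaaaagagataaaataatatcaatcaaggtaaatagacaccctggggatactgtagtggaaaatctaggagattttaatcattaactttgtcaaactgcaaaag
ALB, chr4:74269244-74269394, NTG alone: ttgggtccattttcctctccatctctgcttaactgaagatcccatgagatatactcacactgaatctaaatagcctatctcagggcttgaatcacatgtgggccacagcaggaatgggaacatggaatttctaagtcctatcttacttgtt
AFP intron, chr4:74302929-74303208, siINO80#1 alone: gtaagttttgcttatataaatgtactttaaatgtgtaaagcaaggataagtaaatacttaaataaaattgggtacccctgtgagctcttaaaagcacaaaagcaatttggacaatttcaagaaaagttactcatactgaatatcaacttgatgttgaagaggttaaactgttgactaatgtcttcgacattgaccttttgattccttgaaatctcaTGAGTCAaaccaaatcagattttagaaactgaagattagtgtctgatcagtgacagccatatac
AFP upstream, chr4:74298252-74298402, all 3 lists: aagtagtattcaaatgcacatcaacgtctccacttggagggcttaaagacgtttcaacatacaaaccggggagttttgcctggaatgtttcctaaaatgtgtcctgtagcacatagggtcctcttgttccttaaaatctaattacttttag
The capitals in the AFM peak are a C/EBP match, 130 bp before the AFM start. Those in the AFP intron are a match to the AP-1 letters TGACTCA. The GC, ALB and AFP upstream stretches held none of the motifs reported here. The last lies upstream of the main AFP start but in an intron of the annotated gene.

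The windows of these genes held more peaks per length than the genome in NTG, with the highest density in the albumin cluster. In NTG, 40.3 peaks per Mb were called in the windows, against 22.5 over the whole list. The siINO80#1 list had 34.4 against 22.4, and the siINO80#2 list 17.8 against 17.2. Around ALB, AFP and AFM (chr4:74212831-74419718), the density was 91.8 peaks per Mb in NTG (19 peaks), 82.2 in siINO80#1 (17 peaks) and 38.7 in siINO80#2 (8 peaks). The covered share of that locus fell further apart, at 6.91% for NTG, 3.51% for siINO80#1 and 1.60% for siINO80#2, whereas the whole lists covered 0.984%, 0.996% and 0.767% of the genome. Thus the NTG peaks of the cluster were both more numerous and wider, with a median width of 496 bp against 302 bp and 286 bp. The remaining loci held fewer peaks. H19 had 45.7 per Mb in NTG and in siINO80#1, whereas IGF2 had 7.74 in both. DLK1 and MEG3 together had 21.2 per Mb in NTG, 12.7 in siINO80#1 and 21.2 in siINO80#2. GC had 24.6, 18.5 and 6.16, so in NTG these 2 loci stood near the 22.5 of the whole list. In the order NTG, siINO80#1 and siINO80#2, H19 had 5, 5 and 1, IGF2 had 1, 1 and 0, DLK1 and MEG3 together had 5, 3 and 5, and GC had 4, 3 and 1.

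**Figure D1:**
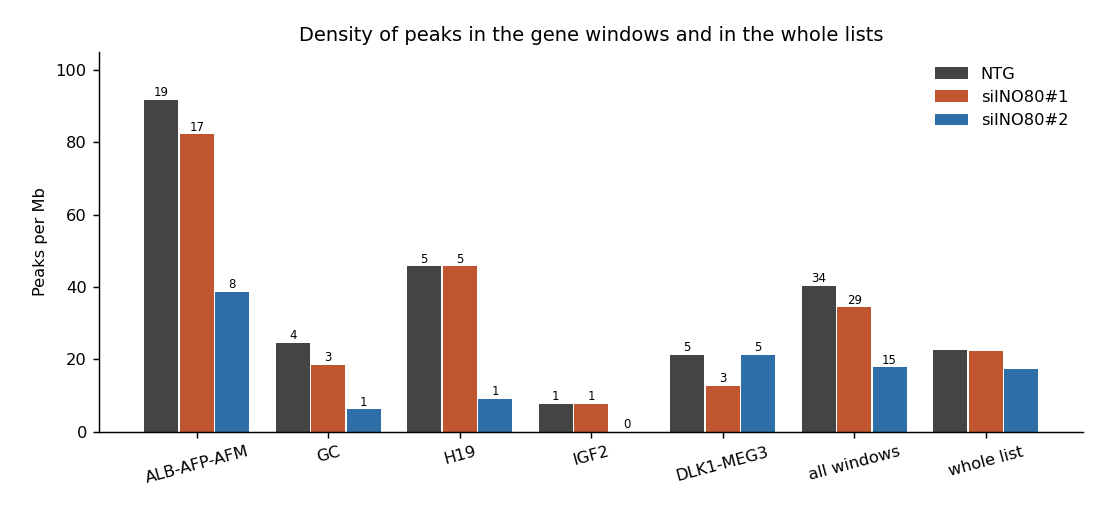
Peaks per Mb in each locus, in all windows and in the whole lists, with 1 bar for each list and the number of window peaks above the bar. The locus of ALB, AFP and AFM stands highest in every list, and its siINO80#2 bar (38.7) is lower than its NTG bar (91.8).

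Counts were also taken at equal list size. With each list reduced to its 53113 peaks of highest fold enrichment, the windows held 26 NTG, 21 siINO80#1 and 15 siINO80#2 peaks. Fold enrichment is the ratio, within 1 list, of reads at the summit to the local background. Because it is not a signal that can be compared between lists, values are also given as percentiles among all peaks of the same list. The median window peak stood at the 48.2 percentile in NTG, 43.7 in siINO80#1 and 43.6 in siINO80#2. The reads at each summit, recovered from the fold enrichment and the p-value, ranged from 13 to 62 in NTG, 14 to 56 in siINO80#1 and 17 to 44 in siINO80#2, so many calls rest on few reads. The local background was 4.37, 5.16 and 5.34 reads (median) in the albumin cluster but 15.8, 20.1 and 19.1 at H19, against 4.70, 6.15 and 6.56 over the whole lists. A peak at H19 therefore needed more reads for the same fold enrichment.

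Most window peaks were distal. A summit within 1 kb of a start site of any gene was found for 6 of 34 NTG peaks, 5 of 29 siINO80#1 peaks and 1 of 15 siINO80#2 peaks. Over the whole lists these shares were 25.5%, 25.1% and 27.6%. The members' own start sites carried a peak at 3 of 8 genes in NTG, 2 in siINO80#1 and 0 in siINO80#2. The background over 38878 genes was 43.3%, 43.1% and 38.0%, respectively. When only the main start of each gene counted, the members with a peak were 2, 1 and 0. The main start was the one shared by the largest group of annotated transcripts, which need not be a majority (2 of 7 at AFP). Ties went to the start of the Ensembl canonical transcript.

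At ALB, NTG had a peak that ended 136 bp before the main start (chr4:74269174-74269868, fold enrichment 3.53, percentile 53.7, 16 reads). Placed on GRCh37, it ended just short of the C/EBP match printed above, which lay 125 to 118 bases before the start. Peak edges need not be exact to that distance, since any correction for the transposase offset is not given. From this edge, a stretch of 1167 bp held no peak in any list. The nearest peaks of siINO80#1 and siINO80#2 began 1032 bp and 1067 bp downstream of the start. An upstream alternative start had 2 peaks within 1 kb. The one of siINO80#1 alone had its summit 7.25 kb before the main start and 76 bp from the alternative one (chr4:74262582-74262883, 3.25, percentile 52.6, 19 reads). The other, 6.87 kb before the main start and 307 bp from the alternative one, was weak and in both NTG (percentile 29.8) and siINO80#1 (percentile 14.8). Both lists thus had a start-site peak there.

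AFP had no peak with its summit within 1 kb of the main start in any list. The nearest edge was 2848 bp upstream in NTG, 978 bp downstream in siINO80#1 and 3118 bp upstream in siINO80#2. The siINO80#1 peak there, in the AFP intron printed above, had 15 reads and stood at percentile 21.8. NTG alone had peaks at 2 alternative starts inside the gene, 14.6 kb (3.91, percentile 61.5, 20 reads) and 17.2 kb (3.33, percentile 49.1, 20 reads) downstream of the main start.

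AFM and GC, both genes of plasma carrier proteins, had a peak at the main start in 1 list each. The AFM peak was in NTG alone, ended 34 bp before the start and had 15 reads (3.32, percentile 47.4). In both siINO80 lists the nearest peak to the AFM start was more than 18 kb away, at 18812 bp and 18850 bp upstream. The GC peak lay over the start in siINO80#1 alone, with 18 reads (chr4:72649714-72650022, 3.09, percentile 47.7). The nearest peak to the main GC start was 21695 bp upstream in NTG and 51109 bp downstream in siINO80#2. A further siINO80#1 peak at an alternative GC start, 13.7 kb downstream, had 14 reads and percentile 14.8.

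The oncofetal imprinted genes had no start-site peak in any list. From the main start, the nearest peak was 7284, 7566 and 7602 bp downstream of H19 in the order NTG, siINO80#1 and siINO80#2. It was 39353, 39450 and 59648 bp downstream of IGF2, the last outside the window, and 20181, 24089 and 24044 bp downstream of DLK1. At MEG3 it lay 8323 bp upstream in NTG, 45576 bp downstream in siINO80#1 and 8536 bp upstream in siINO80#2. The IGF2 start stood in a stretch of 113 kb without a peak in any list, and 3.60% of the 111236 gaps between regions in the genome were at least as long. The corresponding stretches were 86.5 kb at H19 (5.78%), 53.6 kb at DLK1 (11.6%), 53.9 kb at MEG3 (11.5%) and 52.0 kb at AFM (12%), where the NTG peak marked one edge. The median gap was 10.1 kb. At the main starts of ALB and AFP the stretches were 1.17 kb (86.5%) and 3.83 kb (73.9%). Each gap counted once whatever its length, and a long gap covers more of the genome. These shares are therefore not the share of the genome that lies in such gaps. None of the peak numbers missing from the deposited lists fell inside the windows.

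**Figure D2:**
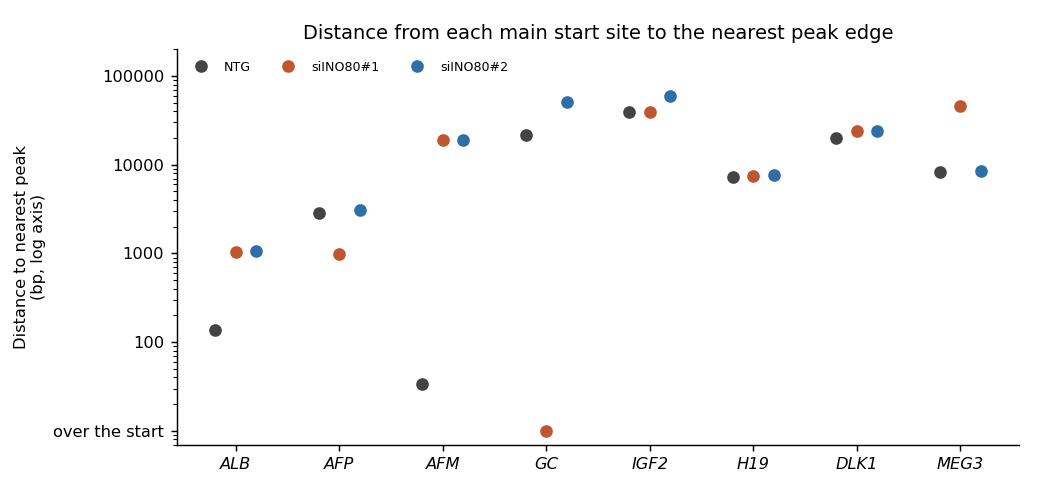
Distance in bp (log axis) from the main start of each gene to the nearest edge of a peak, with 1 point for each list. The ALB and AFM points of NTG (136 and 34 bp) and the GC point of siINO80#1 (over the start) lie lowest, whereas IGF2, H19 and DLK1 lie at least 7284 bp away in all 3 lists.

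Next, the distal regions of the albumin cluster were compared. The region of highest rank in NTG within the windows was 52.3 kb downstream of the AFM start, in an exon of the noncoding gene LINC02499 (chr4:74399452-74400169). It had a fold enrichment of 7.06 in NTG, 5.69 in siINO80#1 and 3.63 in siINO80#2, at percentiles 90.2, 84.4 and 61.7. The region 3.61 kb upstream of the main AFP start (chr4:74297502-74299090) lay in an intron of the annotated gene, 1451 bp from an alternative AFP start. It had 7.02, 7.46 and 4.10, at percentiles 89.9, 92.6 and 69.8, with 45, 53 and 27 reads at the summit. It was the strongest siINO80#1 peak of the windows, and of its 3 peaks that of siINO80#2 stood lowest in its list. A region in an ALB intron, 1.86 kb downstream of the main start (chr4:74271036-74272656), had 4.55, 6.34 and 4.78, at percentiles 71.0, 88.2 and 78.9. By its strongest peak, it ranked highest of the window peaks in the siINO80#2 list and stood higher in both siINO80 lists than in NTG. The siINO80#2 value is the stronger of 2 separate peaks, and the weaker had 2.69 (percentile 30.2).

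In the regions that follow, siINO80#2 had no peak. The one 28.7 kb upstream of ALB (chr4:74241040-74241620) had a fold enrichment of 5.60 in NTG (percentile 81.7) and 3.57 in siINO80#1 (percentile 60.1). In the AFP gene, 10.3 kb downstream of the start, the values were 5.40 (percentile 80.0) and 2.92 (percentile 41.5). Between ALB and AFP, 13.2 kb before the AFP start, a broad NTG peak of 1705 bp (3.35, percentile 49.5) overlapped a siINO80#1 peak of 731 bp (4.54, percentile 74.2). A weak siINO80#1 peak lay 9.66 kb upstream of AFP (2.56, percentile 21.9). NTG alone had a peak 25.2 kb upstream of ALB (3.74, percentile 58.5, 17 reads). The remaining regions of the cluster without siINO80#2 stood between percentiles 8.0 and 55.6 in NTG, 4 of them in NTG alone, and at 25.1 and 41.5 in siINO80#1.

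In all windows, 3 regions were called with both INO80 siRNAs but lacked an NTG peak. The first was 15.3 kb upstream of ALB, with 3.41 and 3.0 (20 and 18 reads, percentiles 56.6 and 43.6) in siINO80#1 and siINO80#2 and summits 2 bp apart. The next was 19.1 kb upstream of AFM, with 3.09 and 3.31 (18 and 20 reads, percentiles 47.7 and 54.1). The remaining one was 45.8 kb downstream of the MEG3 start in an intron of MIR493HG (chr14:101338031-101338459), with 3.41 and 2.53 (35 and 25 reads, percentiles 57.3 and 16.8). The NTG list had no peak at these places, which does not show that NTG reads were absent. The pair of regions on chromosome 4 is printed because each was called with both siRNAs, and neither held a match to the motifs reported here.
ALB upstream, chr4:74254515-74254808, siINO80 lists: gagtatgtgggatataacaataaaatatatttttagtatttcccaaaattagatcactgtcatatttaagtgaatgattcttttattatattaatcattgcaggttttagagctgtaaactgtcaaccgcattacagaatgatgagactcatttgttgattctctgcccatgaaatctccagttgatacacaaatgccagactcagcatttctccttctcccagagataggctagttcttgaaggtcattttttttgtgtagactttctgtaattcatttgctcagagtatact
AFM upstream, chr4:74328352-74328650, siINO80 lists: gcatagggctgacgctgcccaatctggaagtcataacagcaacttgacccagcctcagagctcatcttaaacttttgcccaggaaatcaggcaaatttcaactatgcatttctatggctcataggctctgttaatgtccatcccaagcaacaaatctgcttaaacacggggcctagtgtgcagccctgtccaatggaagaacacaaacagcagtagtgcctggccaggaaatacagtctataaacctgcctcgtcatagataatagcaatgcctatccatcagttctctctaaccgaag
Both sequences come from the plus strand of GRCh37 and are intergenic.

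**Figure D3:**
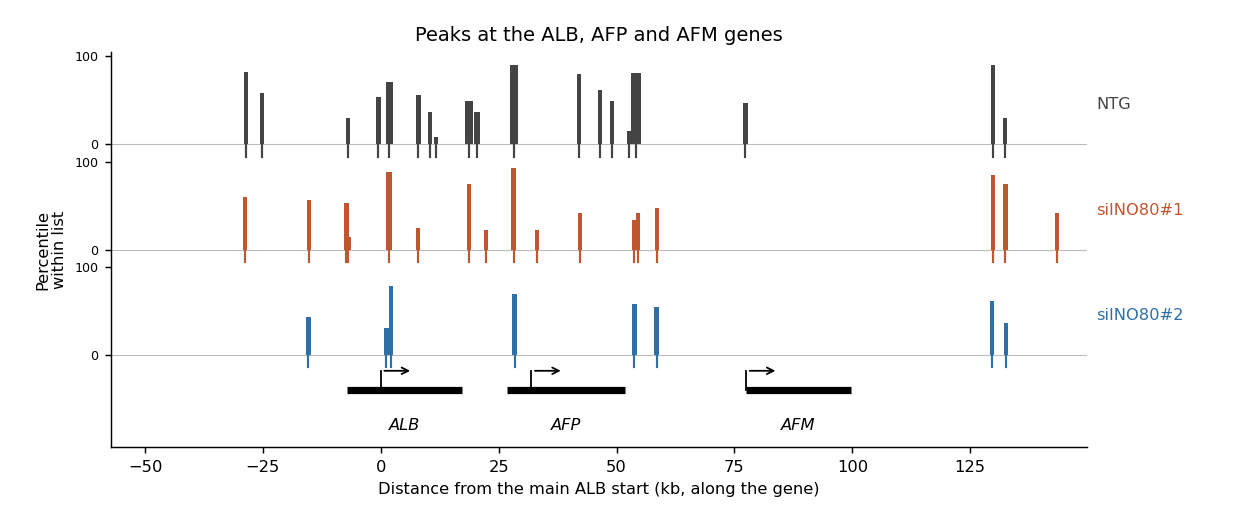
Peaks at ALB, AFP and AFM for each list against the distance in kb from the main ALB start, with bar height as the percentile of fold enrichment within the list, a tick below the line for each peak, black bars for gene bodies and arrows for main starts. NTG shows 19 peaks and siINO80#2 shows 8, while narrow peaks are drawn wider than they are so that they can be seen.

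At GC, a single region was in more than 1 list. It lay 70.3 kb downstream of the start (chr4:72579457-72580075) and had 3.94 in NTG (percentile 62.5, 18 reads) and 3.74 in siINO80#1 (percentile 63.1, 22 reads). Downstream of the gene, NTG had a peak at 52.0 kb and siINO80#2 at 51.1 kb (3.47, percentile 58.2, 21 reads), which did not overlap. Upstream, 2 NTG peaks lay 21.8 kb and 34.0 kb from the main start, the first with its summit 1805 bp from an alternative GC start. These and the NTG peak at 52.0 kb each had 14 reads and a fold enrichment of 3.11 (percentile 39.3). Apart from the siINO80#1 peak over the start, no list had a peak in the 10 kb before the main GC start.

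At H19, the peaks lay downstream of the gene. All regions but the one at 28.8 kb overlapped the interval where enhancers of the cluster are known. The region 7.78 kb downstream of the main start, 71 bp from a start of the noncoding gene MRPL23-AS1, was in all 3 lists (chr11:2010813-2011788). Its fold enrichment was 3.76 in NTG, 2.70 in siINO80#1 and 2.23 in siINO80#2, and its percentile 59.5, 30.2 and 4.44. It had 62, 56 and 44 reads at the summit, the most of any window peak in each list. Further regions at 9.01 kb and 9.52 kb were in NTG and siINO80#1, at percentiles of 11.7 and 5.69 in NTG and 3.10 and 0.803 in siINO80#1. At 14.6 kb a peak was in NTG alone (2.08, percentile 0.448). At 28.8 kb, in an intron of MRPL23, the percentiles were 4.56 in NTG and 0.940 in siINO80#1. In the imprinting control interval, 2 to 5 kb upstream of H19, no list had a peak. The IGF2 window held 1 region, 39.5 kb downstream of the start (chr11:2118674-2119182), with 3.86 in NTG (37 reads, percentile 60.8) and 2.95 in siINO80#1 (40 reads, percentile 43.7).

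The sequence at the H19 region is given as the 1 region of the imprinted cluster that every list shared.
H19 downstream, chr11:2011224-2011369: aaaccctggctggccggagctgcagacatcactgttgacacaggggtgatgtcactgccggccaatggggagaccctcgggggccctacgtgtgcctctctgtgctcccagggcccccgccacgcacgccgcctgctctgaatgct
It held no match to the CTCF letters AGGGGGC or GGNGGCAG.

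At DLK1 and MEG3, 2 regions were in all 3 lists. The one 24.3 kb downstream of DLK1 (chr14:101217095-101217829) had 4.70 (NTG), 3.02 (siINO80#1) and 2.41 (siINO80#2), at percentiles of 73.0, 45.1 and 11.5, and 31, 24 and 19 reads. The one 33.5 kb upstream of DLK1 (chr14:101159387-101159847) stood at percentiles 52.5, 61.9 and 26.4, with 28, 46 and 34 reads. The first had the highest rank of the locus in NTG, and its siINO80#2 peak stood far below it. Around MEG3, siINO80#2 alone had a peak 10.1 kb upstream of the main start, in an intron of MEG3 as annotated (chr14:101282271-101282934, 3.10, percentile 47.1, 34 reads). It lay at the edge of the interval taken to hold the control region of the cluster, and its distance from that region was not measured. At 8.42 kb upstream of the main start, also in a MEG3 intron, NTG (2.76, percentile 23.3) and siINO80#2 (2.16, percentile 2.78) shared a region. The NTG peaks 20.2 kb downstream of DLK1 (2.96, percentile 33.1) and 74.4 kb downstream of MEG3 (2.30, percentile 2.62) had no match. The region 24.3 kb downstream of DLK1 is printed for its match to the HNF4A letters CAAAGTCCA, in capitals, on the minus strand.
DLK1 downstream, chr14:101217466-101217616: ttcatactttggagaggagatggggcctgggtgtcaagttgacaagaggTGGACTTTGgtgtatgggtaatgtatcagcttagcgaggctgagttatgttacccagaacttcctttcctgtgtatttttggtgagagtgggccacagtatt
The match began 26 bp from the summit.

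**Figure D4:**
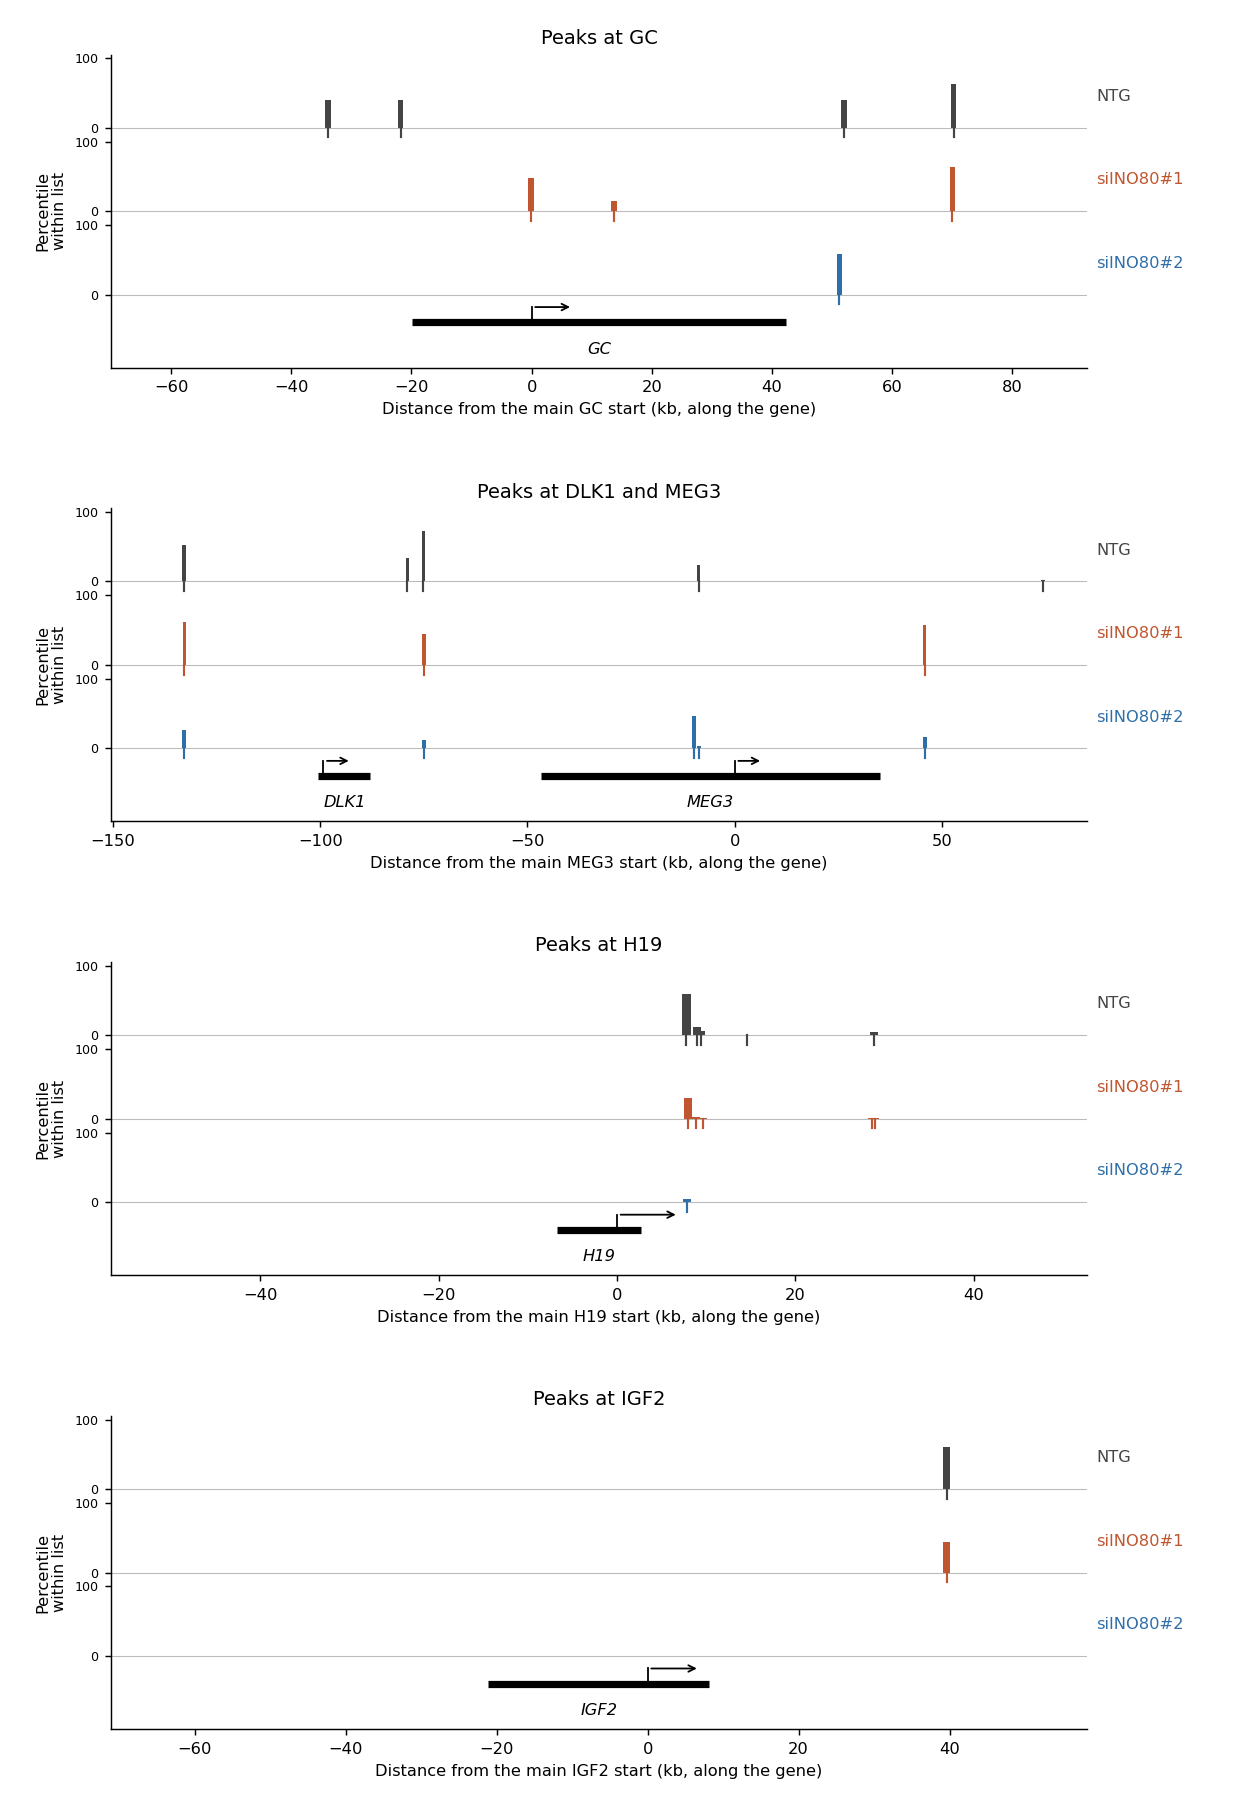
Peaks at GC, at DLK1 and MEG3, at H19 and at IGF2 against the distance in kb from the main start of GC, MEG3, H19 and IGF2, drawn as for the albumin cluster. No main start carries a peak except that of GC in siINO80#1, and the H19 peaks lie downstream of the gene with low percentiles except the one at 7.78 kb (59.5 in NTG).

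To ask how far the lists shared these peaks, matches of at least 1 bp were counted, with 95% Wilson intervals that cover counting error alone. Of the NTG window peaks, 18 of 34 (52.9%, 36.7 to 68.5) matched siINO80#1, near the 56.5% of the whole list. A match in siINO80#2 was found for 9 of 34 (26.5%, 14.6 to 43.1), below the 48.0% of the whole list. In the albumin cluster the matches in siINO80#2 were 5 of 19, and at H19, IGF2 and GC together 1 of 10, whereas DLK1 and MEG3 had 3 of 5. Starting from siINO80#1, 20 of 29 peaks (69.0%) matched NTG and 11 of 29 (37.9%, 22.7 to 56.0) matched siINO80#2, with 56.6% and 52.2% over the whole list. Starting from siINO80#2, 10 of 15 (66.7%) matched NTG and 12 of 15 (80.0%) matched siINO80#1, with 63.6% and 69.1% over the whole list. With the lists at equal size, 30.8% of NTG window peaks matched siINO80#2 against 57.3% of the list. Among peaks with a −log10 q of at least 5 these shares were 21.4% (3 of 14) and 62.7%.

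By class, the windows had relatively many regions without siINO80#2. NTG alone held 15 of the 45 regions (33.3%), against 24.4% of all regions. NTG with siINO80#1 held 10 (22.2%), against 7.64%. All 3 lists shared 8 (17.8%), against 26.8%. siINO80#1 alone had 6 (13.3%, against 21.6%), siINO80#2 alone 2 (4.44%, against 11.7%), the siINO80 pair 3 (6.67%, against 5.19%) and NTG with siINO80#2 1 (2.22%, against 2.62%). The NTG peaks found in no other list had a median percentile of 39.3, those in 1 other list 49.5 and those in both 72.0. Over the whole NTG list these medians were 29.8, 44.7 and 75.7, so rank rose with sharing there as well.

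Among the 8 regions in all 3 lists, ranks were set side by side. The regions 7.78 kb downstream of H19, 24.3 kb downstream of DLK1 and 21.8 kb downstream of AFP stood at least 20 percentile points lower in both siINO80 lists than in NTG. These were 3 of 8, against 6.32% of the 29863 regions of this class in the series. Ranked by −log10 q instead, the H19 region no longer met this, at percentiles 82.6, 65.7 and 44.5, which left 2 of 8 against 5.40% in the series. The region downstream of AFP (chr4:74323137-74325148) had 5.47 in NTG, 2.92 in siINO80#1 and 3.47 in siINO80#2, at percentiles 80.7, 41.5 and 58.2. Its summits lay up to 640 bp apart between lists, and the siINO80#1 value is the stronger of 2 separate peaks. The weaker siINO80#1 peak, which covered the NTG summit, had 2.76 (percentile 33.8). No region stood at least 20 points higher in both, against 6.37% in the series. The ALB intron region (17.1 and 7.91 points) and the region 55.1 kb downstream of AFM (44.8 and 6.86 points, percentiles 29.8, 74.5 and 36.6) stood higher in both by less than that in at least 1 list. The median difference from NTG was −1.56 points in siINO80#1 and −24.3 points in siINO80#2, against −0.000195 and −3.96 in the series. The windows were few, and both differences share the NTG list.

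**Figure D5:**
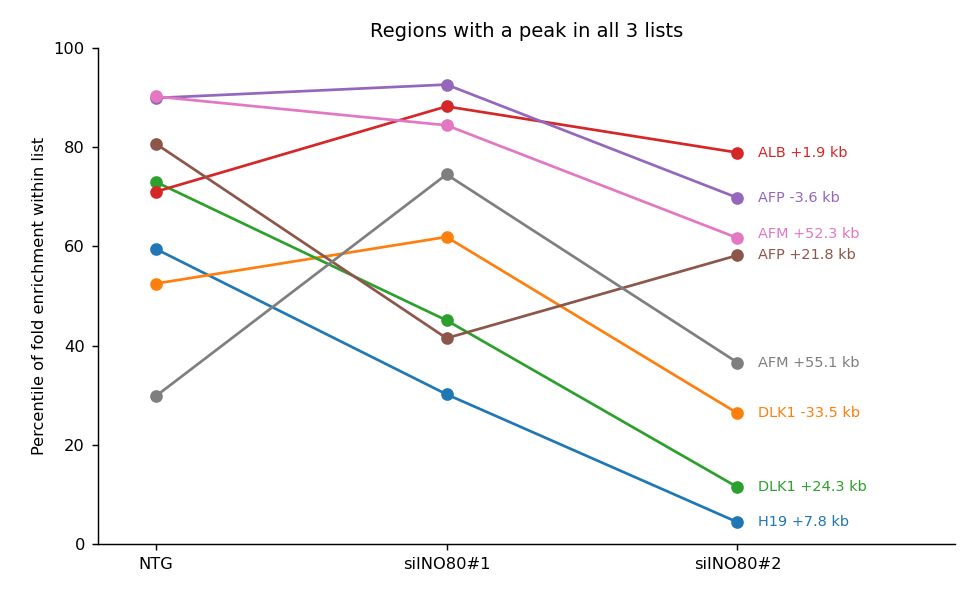
Percentile of fold enrichment within each list for the 8 regions with a peak in all 3 lists, 1 line for each region, named by the gene and the distance in kb of its summit from the main start. The line of the H19 region runs from 59.5 to 4.44, while the ALB intron region rises from 71.0 to 88.2 and 78.9.

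Motif letters were searched on both strands in the 200 bp around the strongest summit of each region. C/EBP letters were in 8 of 45 window regions (17.8%, 9.29 to 31.3), against 10.3% of all regions, and lay at every locus except H19. The HNF4A letters were in 2 regions, against 0.802%. They were 13.2 kb upstream of AFP and 24.3 kb downstream of DLK1. AP-1 letters were in 3 regions (6.67%, 2.29 to 17.9), against 11.9%, namely 7.25 kb upstream of ALB, in the AFP intron and 55.1 kb downstream of AFM. FOXA letters (TGTTTAC) were in 1 region, 6.87 kb upstream of the main ALB start, against 4.96%. CTCF letters were in 1 (AGGGGGC, against 4.62%) and 2 regions (GGNGGCAG, against 8.12%), and all 3 were at H19. The letters TGCCGC of ZFP57, a factor that binds imprinted control regions, were in 0 regions, against 4.53%. These matches describe letters and not binding.

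For comparison, start-site peaks were counted at related genes. Of 10 other plasma protein genes, 8 had one in NTG, 8 in siINO80#1 and 8 in siINO80#2, and FGB and HP had none. TTR, the thyroid hormone carrier, stood at percentiles 61.9, 74.0 and 82.7, and SERPINA1, a protease inhibitor, at 87.9, 78.8 and 60.6. Of 10 other oncofetal genes, 8 had a start-site peak in each list. Among them, GPC3, a surface marker of liver cancer, stood at 84.2, 69.6 and 80.0. SALL4 and TERT had none. The 8 members had 3, 2 and 0, and the difference from these lists was not tested. Over all 38878 genes the shares were 43.3%, 43.1% and 38.0%, so both comparison lists stood above the background. Of 13 regulators of the members, 11 had one in the NTG list, 11 in that of siINO80#1 and 9 in that of siINO80#2. CEBPA and CEBPB, both C/EBP factors, were missing from the last. Their peaks in the other lists ranked low, with CEBPA at percentile 0.765 in NTG and 28.3 in siINO80#1. CEBPB stood at 10.6 in NTG and 0.0151 in siINO80#1. HNF4A stood at 57.4, 61.9 and 16.5. ZBTB20, a repressor of AFP, stood at 98.1, 98.6 and 99.2. The IGF2 receptor genes IGF1R and IGF2R had a start-site peak in every list and INSR in NTG and siINO80#1. Regions in all 3 lists were 37.1% of the window regions of the plasma protein genes, 42.2% of the other oncofetal genes, 34.5% of the regulators, 30.6% of the IGF2 receptor genes, 33.3% of the liver markers and 28.9% of the markers of other cells. The members had 17.8% (9.29 to 31.3) and the whole series 26.8%. The 9 liver markers are ALB and genes already counted among the plasma protein genes or the regulators. Of these 9, 8, 8 and 7 had a start-site peak, and of 6 blood, endothelial and fibroblast markers 2, 2 and 1 did.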

How the data were processed

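ATAC-seq of HepG2 cells was analysed from the 3 narrowPeak lists that the authors deposited, 1 for each siRNA. Groups came from the sample titles. The submitters' processing notes name hg19, Trim Galore 0.4.1, Bowtie2, SAMtools, MACS2 and deepTools 2.2.4. Their settings, any correction for the transposase offset and the filter after calling are not given in the sources used here. Fold enrichment (a ratio) and the −log10 p and −log10 q of each peak are values deposited by the authors, relative to the local background of the same list and without an input library. Peak lists hold what passed a threshold (lowest −log10 q 1.30), so a place without a peak may still have had reads. The number of sequenced reads is unknown.

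An interval with several summits counted as 1 peak, with its strongest summit. Lists were merged into regions from 1 bp of overlap. Start sites came from GENCODE 44 lifted to GRCh37, and start sites within 100 bp were joined. A start-site peak had its summit within 1 kb. Reads at the summit were solved from fold enrichment and −log10 p with the usual formulas of the caller, with an error of at most 3.42e-05 in the windows. Overlaps, classes, read recovery and the motif search were tested on simulated data and recovered in 100% of cases. Regions were named by rule: start-site peaks of members, the 3 of highest percentile per locus, those of the siINO80 pair, those of NTG alone at or above the 50 percentile, and those within known control intervals. Other regions were added after their values were seen. The members, gene lists and rules were chosen with earlier results of these data known. One gene of a marker list was not analysed here, and 1 regulator gene and 1 motif are not reported here. Alternatives were a −log10 q of at least 5, equal list size, 25 kb windows, merging within 500 bp, 50% overlap, 2.5 kb to a start, ranking by −log10 q and, chosen after seeing the data, main start sites only. Python 3.11.15, pandas 2.3.3, numpy 2.4.6, scipy 1.17.1, pysam 0.24.0, matplotlib 3.10.9 and bedtools 2.31.1 were used.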

Additional observations from a re-analysis of the deposited data

Results flagged for a closer look

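In 2 regions with a peak in all 3 lists, the percentile was higher than in NTG with siINO80#1 and lower with siINO80#2. The region 33.5 kb upstream of DLK1 differed from NTG by 9.42 percentile points in siINO80#1 and by −26.1 in siINO80#2. The region 3.61 kb upstream of the main AFP start differed by 2.65 points in siINO80#1 and by −20.2 in siINO80#2. Whether the siRNAs differed was not tested, since each had 1 list.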

How the results depend on the processing

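Of the values recomputed, 45 stayed within 1.5 times the reported count or inside the 95% interval of the reported share, and 12 did not. With a −log10 q of at least 5, the windows held 14 NTG, 11 siINO80#1 and 4 siINO80#2 peaks. The same threshold left 5 regions in NTG alone, 0 in the siINO80 pair and 3 in all 3 lists, and a start-site peak at 1 member in NTG and 0 in siINO80#1. Fewer peaks pass that threshold by construction. When a match had to cover at least 50% of the peak, 8.82% of NTG window peaks matched siINO80#2, against 38.9% of the whole list. With 25 kb on either side, 5 regions were in all 3 lists, since the windows are shorter. With 2.5 kb to a start site, the members with a peak were 4 (NTG), 3 (siINO80#1) and 2 (siINO80#2). When main start sites alone counted, chosen after seeing the data, these were 2, 1 and 0. Ranking by −log10 q left 2 of the 3 regions that stood lower in both siINO80 lists, without that at H19. The order of NTG, siINO80#1 and siINO80#2 in window peaks was the same under equal list size, 25 kb windows, merging and the q threshold.

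No paired analysis was possible because the 3 replicates of each group were deposited as 1 list, and leaving out a replicate could not be run for the same reason. Counts per locus are small, intervals cover counting error only and neighbouring peaks are not independent.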
